A study of Mus musculus with 8 samples.

Results

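The 10 genes described here are muscle-wasting ubiquitin ligases (Fbxo32, Trim63, Fbxo30 and Fbxo40), FoxO transcription factors (Foxo1, Foxo3 and Foxo4), myostatin and its receptor (Mstn and Acvr2b) and the stress gene Gadd45a. They were chosen by gene name, though with earlier results of these data known, and all 10 were found among the 20681 rows of the table. All 10 passed the filter on low values, and 14949 genes were tested in all. Poly-A RNA was sequenced from 8 knee joint samples of mice. Of these, 4 carry the label control and 4 the label knockout, which refers to Loxl2. Loxl2 encodes a lysyl oxidase-like enzyme that crosslinks collagen.

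All the mice are described as Acan-Cre animals with loxP-flanked Loxl2 alleles. Cre, where active, would act in cells that use the aggrecan gene, which include chondrocytes and are not known to include muscle fibres. The control samples were vehicle-treated, and their library names carry LOXL2wt. The other library names carry LOXL2ko, and what those animals received in place of vehicle is not given in the sources used here. All 8 library names carry DMM, the common abbreviation of a surgical meniscus injury. Age, sex and the number of animals behind a sample are not given in those sources either. Nothing says that the samples came from separate animals, so p-values measure only the spread between these samples, which may be technical.

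Muscle protein is lost mainly through the ubiquitin-proteasome system and autophagy. The ligases atrogin-1 (Fbxo32) and MuRF1 (Trim63) tag muscle proteins for the proteasome, and their genes are induced in fasting, disuse and denervation. FoxO factors switch these genes on when they enter the nucleus, and signalling from insulin and IGF-1 through AKT keeps them out of it. Myostatin, secreted by muscle, limits muscle growth by binding activin type II receptors and activating SMAD proteins.

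The libraries held 13991000 to 17411617 reads assigned to genes. Within groups, the counts of the 12 pairs of libraries differed by a chi-square of 25.79 to 66.10 for each degree of freedom, where counting error alone gives about 1, so none appeared to be deposited in duplicate. The targeted gene went against the labels. Loxl2 had 282, 349, 1135 and 311 normalised reads in the control libraries, in replicate order, and 893, 1468, 960 and 1518 in the libraries labelled knockout. Its log2 difference was 1.44, with an exact permutation p of 0.0857 and a limma adjusted p of 0.0294. The latter became 0.0666 to 0.0849 on dropping any 1 of control replicates 1, 2 and 4 and knockout replicates 2 and 4, 0.0669 by edgeR, 0.0659 by DESeq2 and 0.0513 with the replicate number as a block. The groups are therefore called by their labels. If the labels were exchanged, every difference given here would have the opposite sign. Fibroblast markers, described below, were higher too in the libraries labelled knockout, with a median log2 difference of 1.67. Their part in the Loxl2 difference was not tested. The knee samples held the defining markers of skeletal muscle, of which all 18 listed were tested, and of chondrocytes, although Matn3 was listed at 0 in at least 1 library.

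The promoters of Trim63, Mstn and Fbxo40 are shown because these genes had the largest falls among the 10 and their known regulators bind E-boxes, FoxO sites or glucocorticoid receptor sites. Each line gives the 250 bases before an annotated transcription start from RefSeq on GRCm38.p6, which shares its coordinates with mm10. Capitals mark 4 motifs. The FoxO core GTAAACA, the glucocorticoid receptor half-site AGAACA and the E-box CANNTG of myogenic factors were searched on both strands. TATAAA was searched on the gene's strand only. The half-site is a part of the receptor site and not the whole. The E-box reads alike on both strands.
Trim63, chr4:134314870-134315119, plus strand: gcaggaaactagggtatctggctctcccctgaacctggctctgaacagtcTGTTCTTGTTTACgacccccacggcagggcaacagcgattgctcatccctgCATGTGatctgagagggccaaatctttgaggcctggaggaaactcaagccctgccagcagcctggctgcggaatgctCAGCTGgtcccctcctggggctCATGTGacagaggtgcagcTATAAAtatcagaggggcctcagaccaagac
Mstn, chr1:53061390-53061639, plus strand: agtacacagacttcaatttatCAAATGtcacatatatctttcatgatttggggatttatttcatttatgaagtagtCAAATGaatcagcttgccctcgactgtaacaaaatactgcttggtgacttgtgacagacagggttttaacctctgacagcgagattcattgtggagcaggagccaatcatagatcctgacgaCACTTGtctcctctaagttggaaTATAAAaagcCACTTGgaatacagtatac
Fbxo40, chr16:36990468-36990717, minus strand: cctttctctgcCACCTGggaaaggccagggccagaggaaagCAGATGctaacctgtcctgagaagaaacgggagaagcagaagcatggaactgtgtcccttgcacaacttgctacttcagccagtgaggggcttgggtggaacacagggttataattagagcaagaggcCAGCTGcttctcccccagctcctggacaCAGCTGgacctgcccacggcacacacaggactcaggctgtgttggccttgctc

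In Trim63 the FoxO core, read as TGTTTAC, began 194 bases before the start. It followed directly on a glucocorticoid receptor half-site, read as TGTTCT, that began 200 bases before the start. The bases directly before that half-site read tgaacagtc, where tgaaca differs from AGAACA in its first letter. Only exact matches were searched, so an inexact other part of the receptor site would not be capitalised. Trim63 also held 3 E-boxes and a TATAAA that began 31 bases before the start. Mstn held 4 E-boxes and a TATAAA that began 29 bases before the start, and Fbxo40 held 4 E-boxes at the start shown. The RefSeq table matched 8 of the 10 genes with 9 promoters, and Fbxo32 and Foxo4 were not matched. Of these 9 promoters, 1 held the FoxO core, against 3.17% of the 32851 promoters in the table over the same length. The receptor half-site was in 2 of 9 (16.1% of all), the E-box in 6 of 9 (66.2%) and TATAAA in 2 of 9 (7.59%). Fbxo40 counts with 2 starts among the 9. Its other start, not shown, held 2 E-boxes and a half-site, AGAACA, that began 176 bases before it. A match is a description of letters and not of binding.

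Per kilobase of annotated exon, the level of the 10 genes in the control group ran from 1549 normalised reads for Fbxo40 to 30.6 for Acvr2b. Fbxo40 was followed by Foxo4 at 920, Trim63 at 878, Fbxo32 at 528, Mstn at 228 and Gadd45a at 201. Foxo3 at 82.6, Foxo1 at 55.2 and Fbxo30 at 50.3 stood lower. Some neighbours in this order overlapped between control libraries: Foxo4 with Trim63, Mstn with Gadd45a, Foxo1 with Fbxo30, and, barely, Fbxo30 (lowest 36.6) with Acvr2b (highest 36.7). In the group labelled knockout the order was the same except that Gadd45a, at 209, stood above Mstn, at 129, with no overlap between their libraries (195 to 234 against 91.3 to 173). Foxo4 was thus the most abundant FoxO gene by this scale in both groups.

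**Figure D1:**
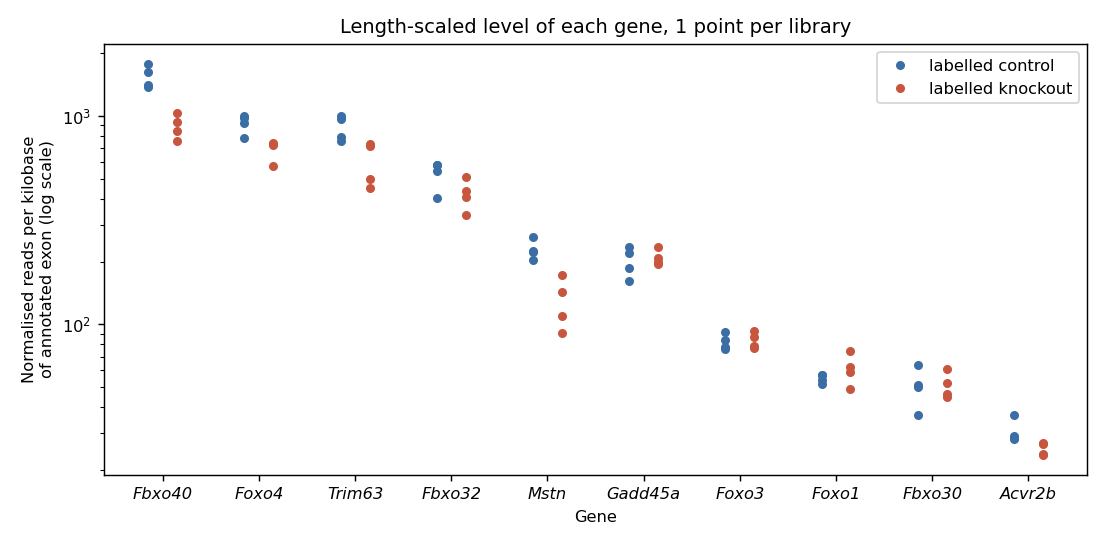
Normalised reads per kilobase of annotated exon (log axis) for the 10 genes, 1 point per library, ordered by the control mean. Fbxo40 is highest and Acvr2b lowest in both groups, and the Mstn points of the libraries labelled knockout, 91.3 to 173, lie below their Gadd45a points.

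Across the comparison of the labels, 4 of the 10 genes were lower in the libraries labelled knockout by limma at an adjusted p under 0.05 (a call, below), and none was higher. Over all genes tested 23.2% were called, 11.6% lower and 11.6% higher. The 4 were Mstn, Fbxo40, Trim63 and Foxo4. The groups did not overlap for these 4 and for Acvr2b, 5 of 10 genes, while 13.4% of all genes tested had non-overlapping groups in that direction. EdgeR called 3 of the 10 (22.2% of all genes, 10.9% lower), DESeq2 4 (27.6%, 13.3% lower) and limma with the replicate number as a block 2 (13.5%, 6.03% lower), all of them lower. The median log2 difference of the 10 genes was -0.30, against 0.00 for all genes tested.

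**Figure D2:**
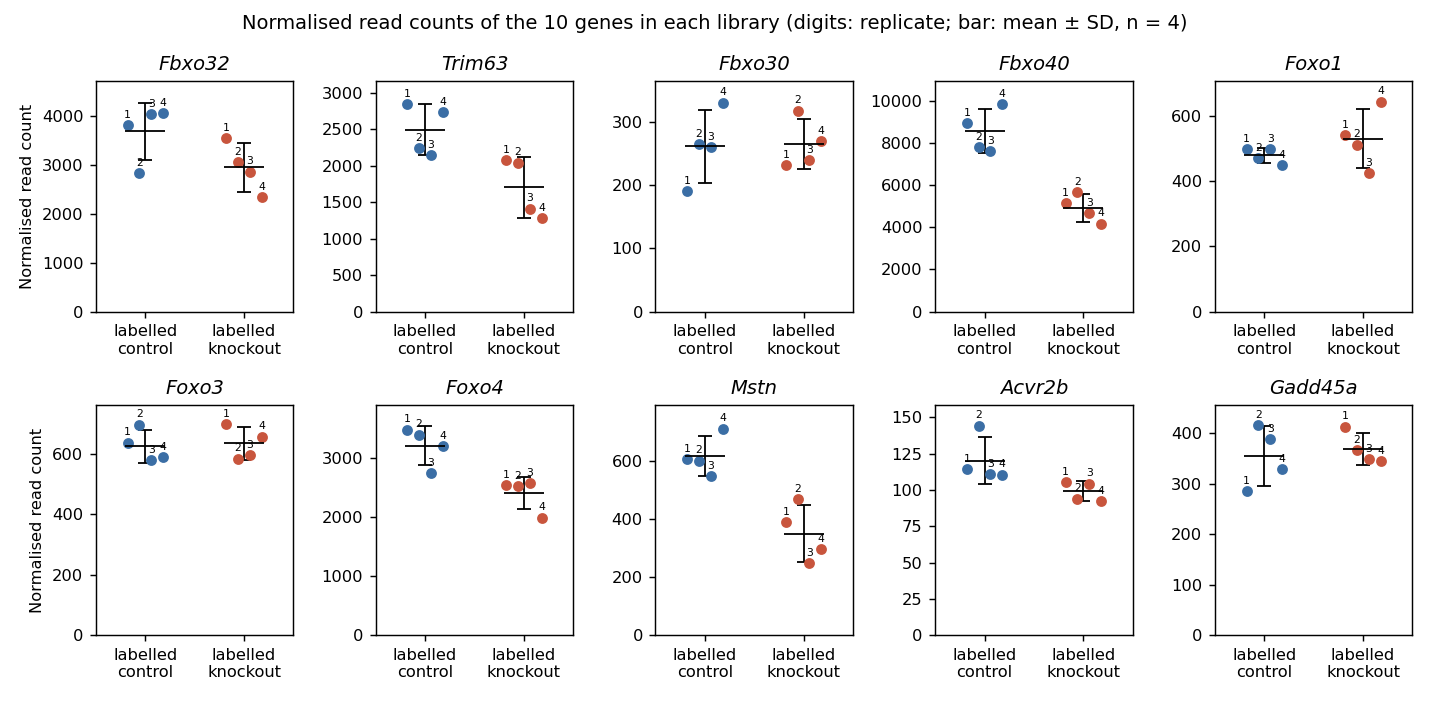
Normalised read count of each gene in every library (digits give the replicate), with the mean and SD of 4 libraries per label. Fbxo40 has a clear gap, between 7624 in the lowest control library and 5674 in the highest library labelled knockout, while the Foxo3, Fbxo30 and Gadd45a points overlap throughout.

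Among the ligases, Fbxo40, an F-box protein of muscle that targets the insulin receptor substrate IRS1, differed most. The control libraries, in replicate order, had 8933, 7796, 7624 and 9834 normalised reads, against 5143, 5674, 4659 and 4171 in the libraries labelled knockout. Every library labelled knockout was lower than every control library. The mean fell by 42.5%, from 8547 ± 1036 to 4912 ± 645 (SD, n = 4 each). On the log2 scale it differed by -0.80 (SE 0.12; limma adjusted p = 0.00456). The exact permutation p was 0.0286, the smallest that the 70 assignments allow. Fbxo40 (chromosome 16, 36963460 to 36990467, minus strand) overlaps no other annotated gene, and its call held in each fit that left out a library and under quantile normalisation, where the difference was -0.52.

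Trim63, the gene of MuRF1, which targets thick filament proteins of the sarcomere, also fell. It had 2849, 2243, 2148 and 2741 normalised reads in the control libraries and 2081, 2044, 1414 and 1280 in the libraries labelled knockout. The groups did not overlap, but replicates 1 and 2 of the knockout label lay just under the lowest control library, and replicates 3 and 4 lay far below it. The mean fell by 31.7%, from 2495 ± 351 to 1705 ± 417 (SD, n = 4 each), or -0.57 on the log2 scale (SE 0.17; limma adjusted p = 0.0397, exact permutation p = 0.0286). This call was the least firm of the 4. Limma lost it without control replicate 1 (adjusted p = 0.0884), 2 (0.0659) or 4 (0.0964), or without knockout replicate 3 (0.0776) or 4 (0.102), and edgeR gave an adjusted p of 0.0509. Trim63 (chromosome 4, 134315120 to 134329629, plus strand) overlaps no other annotated gene.

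Fbxo32, the gene of atrogin-1, the F-box ligase most often used as a marker of muscle wasting, was not called. Its counts were 3805, 2826, 4034 and 4055 in the control libraries and 3539, 3046, 2857 and 2332 in the libraries labelled knockout. Only 1 library labelled knockout, replicate 4, lay below the lowest control library, replicate 2. The means were 3680 ± 580 and 2944 ± 499 (SD, n = 4 each), with a log2 difference of -0.32 and a 95% confidence interval of -0.66 to 0.01 (limma adjusted p = 0.145, exact permutation p = 0.143). The log2 difference was -0.10 under quantile normalisation and -0.17 under scaling without muscle, blood and the 50 highest genes. Fbxo32 (chromosome 15, 58175879 to 58214932, minus strand) lies opposite Gm15943, and the use of strand in counting is not given in the sources used here.

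Fbxo30, the gene of MUSA1, a ligase that BMP signalling holds down in muscle, was the least abundant of the ligases. It had 190, 264, 260 and 331 normalised reads in the control libraries and 232, 318, 239 and 270 in the libraries labelled knockout. All libraries labelled knockout lay within the control range. Its log2 difference was 0.04, with a 95% confidence interval of -0.35 to 0.42 (limma adjusted p = 0.901, exact permutation p = 0.886), and the sign changed in some alternative settings.

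The ligases were compared with each other through the log2 ratio of their values in each library. Relative to Fbxo40, Fbxo32 stood at -1.22 ± 0.23 in the control libraries and -0.74 ± 0.16 in the libraries labelled knockout (SD, n = 4 each), without overlap. Relative to Fbxo30, Fbxo40 stood at 5.05 ± 0.33 and 4.21 ± 0.22, also without overlap. Each ratio had an exact permutation p of 0.0286, which became 0.0953 when adjusted over the 10 ratios computed. The ratio of Fbxo32 to Trim63 moved by 0.25 (exact permutation p = 0.171, adjusted p = 0.214), so a difference between these ligases was not shown.

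Among the FoxO genes, Foxo4 fell, and neither of the other FoxO genes was called. Foxo4 is the X-linked member of the family. Its counts were 3481, 3393, 2744 and 3204 in the control libraries and 2540, 2519, 2576 and 1992 in the libraries labelled knockout. The groups did not overlap, and knockout replicate 4 stood below the other libraries. The mean fell by 24.9%, from 3205 ± 328 to 2407 ± 278 (SD, n = 4 each), or -0.42 on the log2 scale (SE 0.11; limma adjusted p = 0.0259, exact permutation p = 0.0286). Limma gave no call without control replicate 1 (adjusted p = 0.0607), 2 (0.0734) or 4 (0.0594) or knockout replicate 4 (0.0620), and the log2 difference under quantile normalisation was -0.20 (adjusted p = 0.206). Foxo4 (chromosome X, 101254528 to 101260873, plus strand) overlaps no other annotated gene.

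Foxo1, which has the most often described part in muscle wasting and acts in endothelium and B cells too, was not called. It had 496, 470, 497 and 449 normalised reads in the control libraries and 540, 511, 424 and 643 in the libraries labelled knockout. Of the latter, 3 lay above the highest control library and 1, replicate 3, below the lowest. The log2 difference was 0.13, with a 95% confidence interval of -0.14 to 0.41 (limma adjusted p = 0.464, exact permutation p = 0.371). It was 0.03 without knockout replicate 4, 0.23 without knockout replicate 3 and 0.28 under scaling without muscle, blood and the 50 highest genes. Markers of endothelium and of B cells had no called gene of 6 and 4 tested. Foxo1 (chromosome 3, 52268336 to 52353221, plus strand) is overlapped by Gm38034 and lies opposite Gm20402.

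Foxo3, which drives both Fbxo32 and autophagy genes in muscle, had 637, 697, 579 and 588 normalised reads in the control libraries. It had 699, 584, 596 and 657 in the libraries labelled knockout. Its groups overlapped over nearly the whole range. The log2 difference was 0.02, with a 95% confidence interval of -0.20 to 0.24 (limma adjusted p = 0.899, exact permutation p = 0.743). The log2 ratio of Foxo3 to Foxo4 was -2.35 ± 0.11 in the control libraries and -1.92 ± 0.24 in those labelled knockout (SD, n = 4 each), without overlap (exact permutation p = 0.0286, adjusted p = 0.0953 over the 10 ratios).

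Mstn, the gene of myostatin, had the largest difference of the 10. It had 606, 600, 548 and 710 normalised reads in the control libraries and 388, 468, 247 and 296 in the libraries labelled knockout. The groups did not overlap, and knockout replicate 3 was lowest. The mean fell by 43.2%, from 616 ± 67.9 to 350 ± 98.2 (SD, n = 4 each), or -0.85 on the log2 scale (SE 0.19; limma adjusted p = 0.0128, exact permutation p = 0.0286). The call held in each fit that left out a library, with adjusted p from 0.0127 to 0.0424. Mstn (chromosome 1, 53061640 to 53068079, plus strand) overlaps no other annotated gene.

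Acvr2b, the gene of the activin receptor type IIB to which myostatin binds, was the least abundant of the 10. It had 115, 144, 111 and 111 normalised reads in the control libraries and 106, 94.1, 104 and 92.4 in the libraries labelled knockout. The groups did not overlap, but the highest library labelled knockout lay close to the lowest control library, and control replicate 2 stood above the rest. The means were 120 ± 16.2 and 99.2 ± 6.87 (SD, n = 4 each). The exact permutation test gave p = 0.0286, while the limma fit gave a log2 difference of -0.27, with a 95% confidence interval of -0.59 to 0.05 and an adjusted p of 0.201. The difference was -0.18 without control replicate 2, -0.12 under scaling without muscle, blood and the 50 highest genes, and -0.49 under quantile normalisation (limma adjusted p = 0.0549). Acvr2b (chromosome 9, 119402118 to 119434995, plus strand) lies opposite Gm47320.

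Gadd45a, a stress gene that is raised in denervated and fasted muscle and acts there downstream of ATF4, had 286, 416, 389 and 329 normalised reads in the control libraries. It had 413, 367, 349 and 344 in the libraries labelled knockout. All of the latter lay within the control range. The log2 difference was 0.07, with a 95% confidence interval of -0.23 to 0.36 (limma adjusted p = 0.749, exact permutation p = 0.686). Gadd45a (chromosome 6, 67035096 to 67037457, minus strand) lies opposite E230016M11Rik.

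Skeletal muscle markers moved with the group. In whole-joint RNA, fewer muscle cells, less RNA per muscle cell and more RNA from other cells cannot be told apart. The 18 markers, among them Acta1, Ckm and Myh4, held 15.5 to 16.3% of all normalised reads in the control libraries and 9.16 to 12.5% in the libraries labelled knockout, lowest in replicate 4. All 18 had a log2 difference below 0, from -1.07 for Myh4 to -0.03 for Tnnc2 with a median of -0.69, and 10 were called lower. Tnnc2, with means of only 11.9 and 12.2 normalised reads, lay near the filter on low values, and the next highest marker was Mb at -0.20. Tnnc2 was kept in the mean of the list and in the counts of markers below. None of the 18 was listed at 0 in any library. The mean log2 value of the list differed by -0.68 between the groups (exact permutation p = 0.0286). Set among these markers, Mstn had 5 markers with a more negative difference and Fbxo40 had 6, whereas Trim63 had 12, Foxo4 15, and Fbxo32 and Acvr2b 16 each. Foxo1, Foxo3, Fbxo30 and Gadd45a had differences above those of all 18. The part of the muscle markers in the differences of the 10 genes was not tested.

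A second measure gave each gene relative to the mean log2 value of these 18 markers in the same library. On that scale, Mstn differed by -0.18 (95% confidence interval -0.62 to 0.27, limma adjusted p = 0.451), Fbxo40 by -0.12 (-0.43 to 0.18, adjusted p = 0.432) and Trim63 by 0.10 (-0.26 to 0.47, adjusted p = 0.585). None of these 3 was called. Fbxo32 differed by 0.35 (0.01 to 0.70, adjusted p = 0.0661; 0.19 without control replicate 2), Foxo4 by 0.26 (0.01 to 0.51, adjusted p = 0.0625) and Acvr2b by 0.41 (0.01 to 0.81, adjusted p = 0.0672), also without a call. The other 4 genes were called higher relative to the markers: Foxo1 by 0.81 (adjusted p = 0.00611), Gadd45a by 0.74 (0.00299), Fbxo30 by 0.71 (0.0145) and Foxo3 by 0.70 (0.00344). This was a smaller share than that of all genes tested, of which 66.0% were called on this scale, 65.8% higher and 0.127% lower, with a median of 0.68. The 4 called genes thus stood near the median gene, and the other 6 stood between it and the muscle markers or beyond them.

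**Figure D3:**
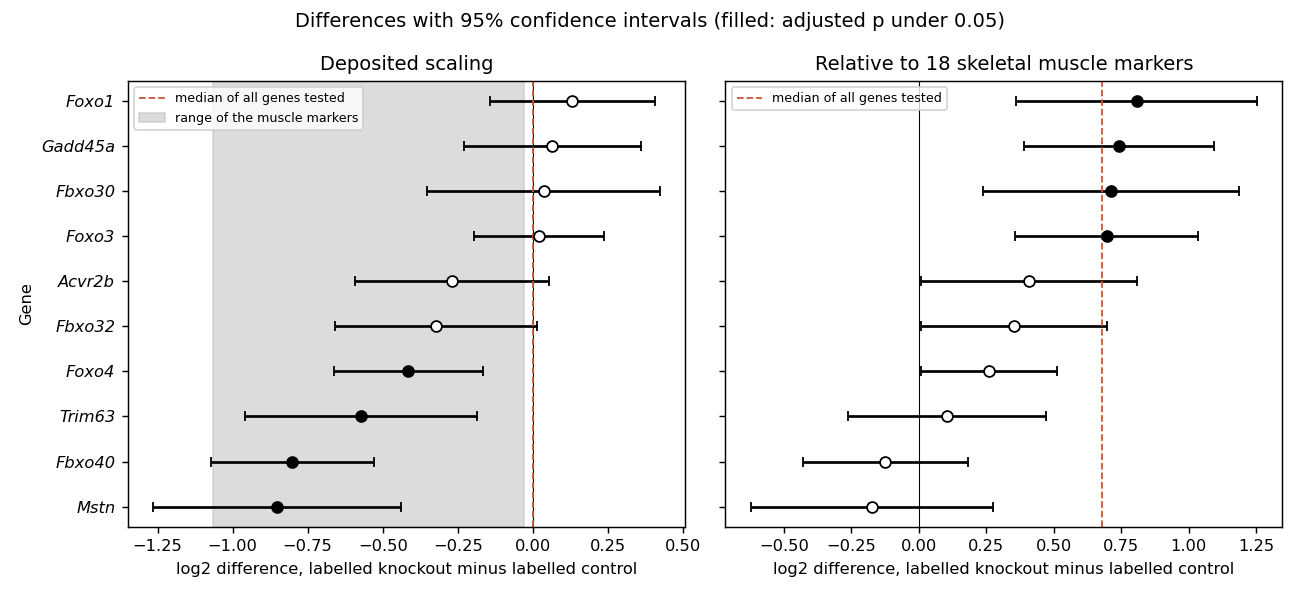
Log2 difference of each gene between the labels with its 95% confidence interval, under the deposited scaling (left) and relative to 18 skeletal muscle markers (right); filled points have an adjusted p under 0.05. Mstn, Fbxo40, Trim63 and Foxo4 are filled and below 0 on the left, and Foxo1, Gadd45a, Fbxo30 and Foxo3 are filled and near the all-gene median of 0.68 on the right.

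The libraries of one label did not rank alike for all genes. In knockout replicate 4 the muscle markers were lowest, at -0.68 from their mean over the 8 libraries on the log2 scale, and so were Fbxo40 (-0.63), Trim63 (-0.67), Foxo4 (-0.47) and Fbxo32 (-0.48). Mstn was lowest in knockout replicate 3 (-0.88), where the muscle markers stood at -0.19. Foxo1 was highest in knockout replicate 4 (0.36). Among the control libraries, replicate 2 had the highest muscle marker level (0.45) but the lowest Fbxo32 level (-0.20).

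**Figure D4:**
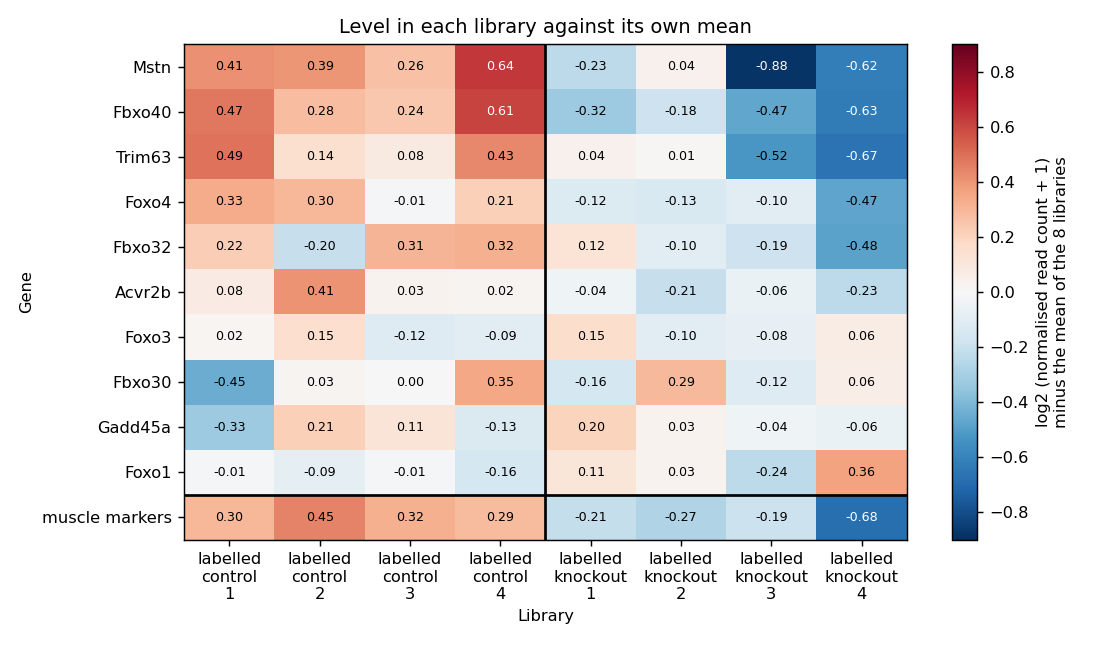
Log2 level of each gene in each library minus its own mean over the 8 libraries, with the mean of the 18 skeletal muscle markers in the bottom row. Mstn, Fbxo40 and Trim63 run from red in the control libraries to blue in knockout replicates 3 and 4, as low as -0.88 for Mstn, while Foxo3, Fbxo30, Gadd45a and Foxo1 show no such split.

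The profile of Trim63 over the 8 libraries was compared with those of the other 14948 genes tested, by the root mean square distance of log2 values centred on each gene's mean. The nearest were Tpm1 (distance 0.09), a tropomyosin of the thin filament, Sms (0.11), the spermine synthase gene, and Synm (0.12), an intermediate filament gene of muscle. Among the members, Fbxo40 came 58th, Mstn 204th, Foxo4 246th and Fbxo32 409th. The nearest to Fbxo32 were Prpf3, Hoxc11 and Nedd1 (each 0.11), and its nearest member was Trim63, which came 1004th. These distances describe 8 libraries and carry no test.

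Other genes of the same pathways were read from 8 lists with 130 genes, of which 128 were tested. Limma called 51 of them (39.8%, against 23.2% of all genes tested), 41 lower and 10 higher. Over all genes tested 11.6% were called lower and 11.6% higher, and the counts of each list below stand beside these shares. The skeletal muscle markers fell too, with a median log2 difference of -0.69. Their part in the falls of the list genes was not tested. Among 15 other ubiquitin ligases of muscle, 7 were called lower and none higher, with a median log2 difference of -0.16. Ubr4, a large N-end rule ligase that overlaps Emc1, fell from 3937 ± 185 to 2665 ± 167 normalised reads (SD, n = 4 each; log2 difference -0.56, limma adjusted p = 0.00398). Trim54, the gene of MuRF3, a paralogue of MuRF1, fell by 0.79 on the log2 scale (limma adjusted p = 0.00456), and Mul1, a mitochondrial ligase, by 0.56 (0.00687). These calls held in each fit that left out a library. Relative to the muscle markers, Ubr4 differed by 0.11 (limma adjusted p = 0.480), Trim54 by -0.11 (0.441) and Mul1 by 0.12 (0.468), without a call. Of the 15 genes, 8 were called higher and none lower on that scale, against 65.8% and 0.127% of all genes tested.

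The proteasome degrades what the ligases tag. Of 31 genes of its subunits, 14 were called lower, none was called higher and 17 did not pass the test, while all 31 had a log2 difference below 0, from -0.50 to -0.07 with a median of -0.27. Psmd1, a subunit of the regulatory particle, fell from 2141 ± 139 to 1515 ± 108 (SD, n = 4 each; log2 difference -0.50, limma adjusted p = 0.00579). Psmc1 and Psmd12, also of that particle, each fell by 0.40 (limma adjusted p = 0.00790 and 0.00816). Of the 31 genes, 24 were called higher and none lower relative to the muscle markers, against 65.8% and 0.127% of all genes tested.

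Of 14 autophagy genes of muscle wasting, 4 were called lower and 1 higher (median log2 difference -0.20). Bnip3, a mitophagy receptor gene, fell by 0.42 on the log2 scale (limma adjusted p = 0.0143). Sqstm1, the gene of the cargo adaptor p62, which lies opposite Mrnip, fell from 9638 ± 1024 to 6622 ± 936 (SD, n = 4 each; -0.55, limma adjusted p = 0.0145). Ulk1, an autophagy kinase gene, fell by 0.33 (limma adjusted p = 0.0263) but was not called without control replicates 1 or 4 or knockout replicates 1 or 4 (0.0557 to 0.0705). Ctsl, a lysosomal protease gene, rose by 0.33 (limma adjusted p = 0.0299). Its call was lost without any 1 of control replicates 1, 2 and 4 and knockout replicates 1, 2 and 4 (0.0571 to 0.0839). Relative to the muscle markers, Bnip3 differed by 0.25 (limma adjusted p = 0.193), Sqstm1 by 0.13 (0.404) and Ulk1 by 0.35 (0.0720), without a call. Of the 14 genes, 11 were called higher and none lower on that scale, against 65.8% and 0.127% of all genes tested.

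Of 14 other FoxO target genes, 5 were called lower and 1 higher (median log2 difference -0.22). Pdk4, which restrains the entry of pyruvate into the mitochondrial cycle, had the largest fall, by 1.68 on the log2 scale, from 8161 ± 2333 to 2592 ± 934 normalised reads (SD, n = 4 each; limma adjusted p = 0.00517). Cat, the catalase gene, fell by 0.58 (limma adjusted p = 0.00504), and Bcl6, a transcriptional repressor gene, by 0.73 (0.00585). Sesn3, a gene of a stress-induced regulator of mTORC1, rose by 0.50 (limma adjusted p = 0.0241). Its call was lost without control replicates 1 or 4 or knockout replicates 1 or 4 (0.0534 to 0.0587).

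Of 19 genes upstream of FoxO or acting with it, 6 were called lower and 3 higher (median log2 difference -0.01). Igf1, whose product signals through AKT to keep FoxO out of the nucleus, rose from 423 ± 235 to 1829 ± 586 normalised reads (SD, n = 4 each; log2 difference 2.22, limma adjusted p = 0.00462), and lies opposite Igf1os. Akt1 rose by 0.45 (limma adjusted p = 0.00784) and Pik3r1, a regulatory subunit of PI3 kinase, by 0.49 (0.0180, and 0.0538 without control replicate 2). Mtor, which lies opposite Angptl7, fell by 0.51 (limma adjusted p = 0.00581). Akt2 also fell, from 4979 ± 347 to 4060 ± 238 normalised reads (SD, n = 4 each), or by 0.29 on the log2 scale (limma adjusted p = 0.0328). Sgk1, Rptor, Prkaa2 and Ep300 made up the rest of the called falls. Akt2 and these genes were named after their values were seen. Relative to the muscle markers, Mtor differed by 0.16 without a call (limma adjusted p = 0.329), while Akt2 was called higher by 0.38 (0.0141). Of the 19 genes, 12 were called higher and none lower on that scale, against 65.8% and 0.127% of all genes tested. Fibroblast and macrophage markers were higher under the deposited scaling. Of 8 fibroblast markers 7 were called higher, with summed levels of 37877 to 118650 in the control libraries and 166831 to 269627 in those labelled knockout. Of 8 macrophage markers 8 were called higher, with 1407 to 3229 and 5006 to 6777. None of these 16 markers was listed at 0 in any library, and their part in the rises of Igf1, Akt1 and Pik3r1, or of Ctsl and Sesn3, was not tested.

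Of 18 tested genes of the myostatin and activin pathway, 2 were called lower and 3 higher (median log2 difference 0.05). These counts are not far from the shares of all genes tested, 11.6% lower and 11.6% higher. Gdf11, the closest relative of myostatin, fell by 0.96 on the log2 scale, from 408 ± 110 to 211 ± 62.9 (SD, n = 4 each; limma adjusted p = 0.0232). Its groups overlapped, and the call was lost without control replicates 1 or 4 or knockout replicate 4 (0.0512 to 0.0614). Tgfbr1, a type I receptor that can carry the myostatin signal, rose by 0.58 (limma adjusted p = 0.0176), but not past the threshold without control replicate 2 or knockout replicate 4 (0.0503 to 0.0538). Bmp1, a protease that frees myostatin from its propeptide, rose by 1.18 (limma adjusted p = 0.0201). Its call was lost without control replicates 2 or 4 or knockout replicates 2 or 4 (0.0531 to 0.0630). Wfikkn2, whose product binds and inhibits myostatin, fell by 0.49, from 245 ± 42.0 to 172 ± 19.7 (SD, n = 4 each; limma adjusted p = 0.0416). Its groups overlapped, and its call held on dropping control replicate 4 but on dropping none of the other 7 libraries (0.0547 to 0.112). Tll1, a protease related to Bmp1 with only 11.4 ± 8.66 and 35.8 ± 11.1 normalised reads (SD, n = 4 each), rose by 1.72 (limma adjusted p = 0.0246) and lost its call without any 1 of control replicates 1, 2 and 4 and knockout replicates 1, 2 and 4 (0.0535 to 0.0692). The fibroblast and macrophage markers, of which 7 of 8 and 8 of 8 were called higher, moved the same way as Tgfbr1, Bmp1 and Tll1, and their part in these rises was not tested.

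Of 11 tested genes of the denervation response, the setting in which the atrophy ligases are best known to rise, 2 were called lower and 2 higher (median log2 difference -0.53). The log2 difference was below 0 for 9 of the 11 and above 0 for 2. Gadd45g, a paralogue of Gadd45a, fell by 0.76 (limma adjusted p = 0.0418). Its groups overlapped, and the call was lost without control replicates 2 or 4 or knockout replicates 1, 2 or 3 (0.0572 to 0.0995). Chrnb1, the other gene called lower, fell by 0.53 (limma adjusted p = 0.0499), also with overlapping groups. Runx1, a transcription factor of denervated muscle and of blood cells, rose from 286 ± 121 to 741 ± 195 (SD, n = 4 each; 1.40, limma adjusted p = 0.00911), and lies opposite Gm26626. Ncam1, a cell adhesion gene, rose by 0.90 (limma adjusted p = 0.0176). The part of the fibroblast and macrophage markers, which had the summed levels given for Igf1, in the rises of Runx1 and Ncam1 was not tested. Myog, the gene of the factor that activates Fbxo32 and Trim63 after denervation, had 113 ± 37.2 and 86.0 ± 19.1 normalised reads (SD, n = 4 each) and was not called (limma adjusted p = 0.323). Myog and Chrnb1 were singled out after their values were seen.

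Of 6 glucocorticoid target and receptor genes, 1 was called lower and none higher (median log2 difference -0.39). Of all genes tested, 11.6% were called lower and 11.6% higher. Klf9, a transcription factor gene, fell by 0.37 (limma adjusted p = 0.0385). Its groups overlapped, and its call was lost without control replicates 2, 3 or 4 or knockout replicates 1, 2 or 3 (0.0527 to 0.103). Nr3c1 encodes the receptor for which the half-site beside the FoxO core of Trim63 is named. It had 1488 ± 116 and 1498 ± 184 normalised reads (SD, n = 4 each, limma adjusted p = 0.980). It too was singled out after its value was seen.

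**Figure D5:**
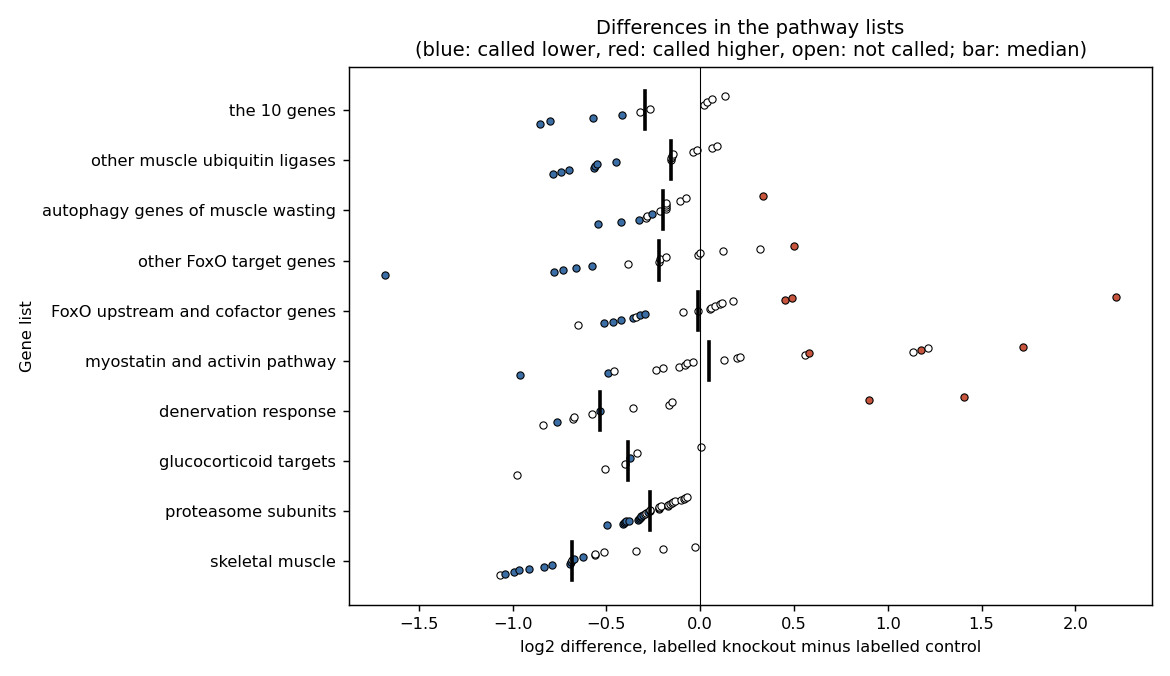
Log2 difference between the labels for the 10 genes, each tested gene of the 8 pathway lists and the skeletal muscle markers, with list medians as bars. The proteasome points lie between -0.50 and -0.07, and the pathway genes furthest from 0 are Igf1 at 2.22, Tll1 at 1.72 and Pdk4 at -1.68.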

How the data were processed

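The deposited table holds 1 normalised signal per gene and library, the read count divided by a size factor of the library. The authors aligned reads to mm10 with HISAT2, counted with featureCounts and normalised with DESeq2, per the labels and the submitters' processing notes; versions, annotation, strand use and filters are not given in the sources used here. Every value was a whole multiple of its column's smallest value (100% within 0.001 of a read). In control replicate 2 and knockout replicate 1 that step was 1.01 and 0.997, too near 1 to be informative alone. All value columns were mapped (0 left over).

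A gene entered the tests if 4 or more libraries had 10 or more normalised reads. The tests used log2(value + 1), where 1 is the pseudocount, so changes of low genes are understated, and limma 3.58.1 (lmFit and eBayes with trend, 1 term for the group, R 4.3.3). Benjamini-Hochberg adjustment ran over all genes tested, and a call needs an adjusted p under 0.05. Single values were compared by exact two-sided permutation tests. Levels per kilobase used the union of annotated exons in GENCODE M21, which also gave coordinates. edgeR 4.0.16 and DESeq2 1.42.0 were run on the recovered reads as alternatives. The tests were checked on simulated data.

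The 10 genes, the pathway lists and the muscle markers were chosen with earlier results of these data known. The 10 log2 ratios between genes were chosen after values were seen. From each pathway list, up to 3 called genes of smallest p were named, and called genes against the direction of the list's majority; the myostatin and activin list was even (9 genes each way), so all its called genes were named. Replicate numbers are not stated to pair samples.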

Additional observations from a re-analysis of the deposited data

Results flagged for a closer look

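In 2 of the 20 sets of 4 libraries (10 genes, 2 labels), 1 library stood apart from the other 3 by more than Dixon's 95% limit, which chance exceeds in about 1 in 20 sets. Foxo4 had 1992 normalised reads in knockout replicate 4, the lowest of its group, with a gap of 0.912 of the range on the log2 scale. The muscle markers were lowest in the same library. Acvr2b had 144 normalised reads in control replicate 2, the highest of its group, with a gap of 0.866 of the range. Neither value was removed.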

How the results depend on the processing

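The count of called genes among the 10 was 4. It was 2 under the replicate block, quantile normalisation and scaling without muscle, blood and the 50 highest genes, and 2 to 4 when 1 library was left out. The losses were Trim63 and Foxo4, whose difference stayed below 0 in all 17 alternatives; Fbxo40 and Mstn were called in all 17. The cause was not tested. The 51 calls in the pathway lists became 27 under the replicate block, 29 under quantile normalisation, 32 under that scaling, and 30 to 47 when 1 library was left out. Relative to the muscle markers, 4 of the 10 genes were called in all 13 alternatives.

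Over all genes the replicate block gave 2018 calls, against 3461 without it. Same-numbered libraries deviated together only for number 1 (correlation of deviations 0.21, and -0.12, -0.23 and -0.06 for the others), so the numbers were not taken as pairs. Under the block the adjusted p was 0.0533 for Trim63 and 0.0574 for Foxo4. Over all genes, 1751 calls were left on dropping knockout replicate 4, 1887 on dropping control replicate 2 and 2194 on dropping control replicate 4. The scaling without muscle genes moved the median of all genes by 0.15 and gave 2704 higher and 787 lower calls, against 1732 and 1729. On it Trim63 was at -0.42 and Foxo4 at -0.27.

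Genes near 0 changed sign. Fbxo30 was at -0.044 under quantile normalisation and ran from -0.107 to 0.158 when 1 library was left out, below 0 without control replicate 1 or knockout replicate 2 (-0.06). Foxo3 ran from -0.028 to 0.074, below 0 without control replicate 3 (-0.015), control replicate 4 (-0.0075) or knockout replicate 1. Gadd45a ran from -0.034 to 0.147, below 0 without control replicate 1. Mstn relative to the muscle markers ran from -0.306 to 0.026, above 0 without knockout replicate 3. Of the named pathway genes, Sqstm1 lost its call under the block and quantile normalisation, Bnip3 and Gadd45g under quantile normalisation and the scaling without muscle genes, Psmc1 under quantile normalisation, and Ulk1 and Klf9 under all 3. Ctsl, Sesn3, Gdf11 and Bmp1 lost theirs under the block, Tll1 under the block and quantile normalisation, and Wfikkn2 under the block, that scaling and no filter on low values. The fewest reads behind a value of the 10 genes were 96, for Acvr2b, so depth limits that gene most.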
